A study of Mus musculus with 18 samples.

Results

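Diethylstilbestrol (DES) is a synthetic estrogen without a steroid skeleton, and the comparison described here is that of newborn mouse vagina after prenatal DES with newborn vagina after prenatal oil. Pregnant ICR mice, an outbred stock from SLC, received DES daily at 67 µg per kg of maternal body weight between fetal days 10 and 18, or oil alone on the same days. The pups were therefore exposed through the mother, and no genetic change is named for either group. Total RNA of the vagina was taken on the day of birth, day 0, and hybridised to Affymetrix MOE430A arrays. The labels name 3 litters per group but not whether each array held 1 litter or a pool, so the p-values measure only the spread between arrays.

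Members of the comparison were chosen by organ, treatment and chip, and 5 of the 18 arrays of the series met the rule, 2 with DES (arrays 2 and 3) and 3 with oil (arrays 1, 2 and 3). The first DES vagina array was hybridised to the older MG_U74Av2 chip and was used only to list which genes it detected. Oviduct and uterus after the same treatments gave the other 12 arrays, 3 per organ and treatment, and entered the same model to estimate the spread and to test where vagina differed. Signals below are in the order of DES arrays 2 and 3 and oil arrays 1, 2 and 3 unless stated otherwise. A signal is a probe set's intensity after each array was scaled to a trimmed mean of 500.

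The Müllerian ducts give rise to the oviducts, the uterus and much of the vagina, and the urogenital sinus contributes to the lower vagina. The vaginal epithelium becomes stratified under the transcription factor Trp63, while the uterine epithelium stays a simple columnar layer. In the adult vagina estrogen drives the epithelium to thicken and cornify. Prenatal DES is known for lasting changes of the vaginal epithelium in mice and in women.

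The organ label was checked against its defining markers before any comparison. Hoxd13, the most posterior gene of its cluster, gave signals of 275 and 479 with DES and 396, 377 and 365 with oil, against 2.44 to 18.5 on the 12 oviduct and uterus arrays. Trp63 was called Present on all 5 vagina arrays. Ovgp1, the oviduct's secreted glycoprotein, gave 142 and 129 with DES and 96.0, 121 and 75.3 with oil, against 859 to 6049 in oviduct. The bladder-type uroplakin genes Upk1a, Upk2 and Upk3a had summed signals of 1693 and 1316 with DES and 1164, 980.1 and 1186 with oil, and none of them passed the test between the groups.

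Scanning ran on 2 days, with DES array 2 and oil arrays 1 and 2 on the first and DES array 3 and oil array 3 on the second. Detection followed the scan day, with 55.4% to 56.9% of probe sets called Present on the first day and 66.1% and 66.3% on the second. Oil array 1 stood apart from the other vagina arrays. Its summed signal over 39 skeletal muscle genes was 10448, against 32078 and 30345 on oil arrays 2 and 3 and 37323 and 46502 on the DES arrays, and among the oil arrays it was highest for the mucous genes Clca1 and Agr2. Counts are therefore also given without it. Among the arrays of other organs, oil oviduct arrays 1 and 3 and oil uterus array 3 carried skeletal muscle RNA, with summed markers of 3396, 8346 and 8929 against 289 to 1017 on the others, and the deposited records of oil oviduct array 1 and DES oviduct array 1 conflict.

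Between DES and oil vagina, 749 of 22626 probe sets passed an adjusted p of 0.05 (limma with the scan day as a block, Benjamini-Hochberg over all probe sets), which is 3.31% of those tested. Of all probe sets, 444 (1.96%) were higher and 305 (1.35%) were lower with DES. Counted once per gene, by the probe set with the highest mean signal, 324 of 12393 genes rose (2.61%) and 197 fell (1.59%). The counts of list members given below stand against these shares of all genes. All lists were drawn up with earlier results of these data known, so their counts are not independent evidence. The rises reached further than the falls: 48 genes rose by more than 2 on the log2 scale and 5 fell by more than 2. Over all genes the median change was 0.005. All changes are differences of log2(signal + 32), which understates those of weak genes. In RNA of an organ, fewer cells of a type and less RNA per cell cannot be told apart.

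The number of arrays, above all the 2 with DES, limited the precision. Without the scan day block, 311 probe sets passed (1.37%), all of them among the 749 and in the same direction. Leaving out DES array 2 gave 242 and leaving out DES array 3 gave 387, while leaving out oil array 1 gave 513. Counted by gene, 163 were higher (1.32%) and 67 lower (0.541%) without the block. The lower probe sets alone numbered 177 without oil array 1 and 187 without oil array 2. DES and oil arrays did not overlap for 3052 genes (24.6%), so absence of overlap in itself carries little weight at this size. An exact permutation of 2 against 3 arrays can go no lower than p = 0.200 when the one-sided p is doubled. Single genes were therefore tested only in the model across all genes.

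**Figure D1:**
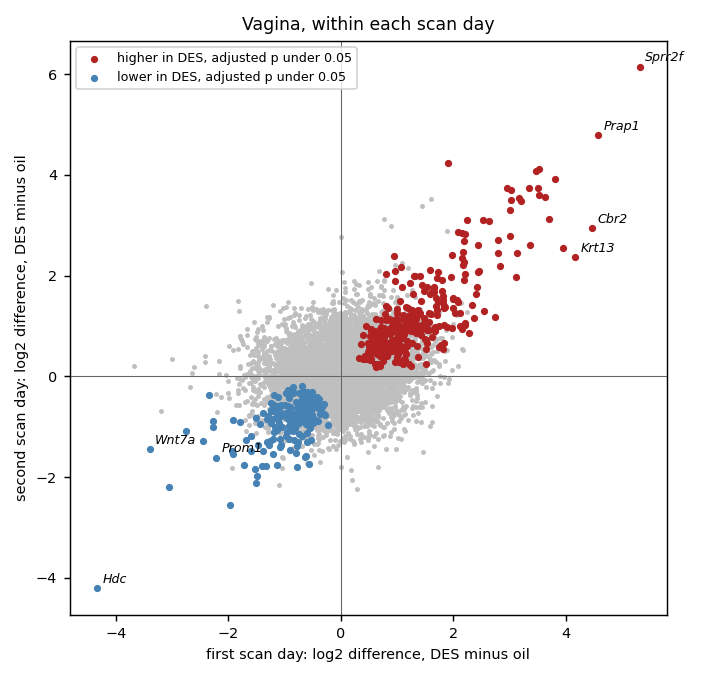
Difference between DES and oil vagina within the first scan day (horizontal axis) and within the second (vertical axis), both as log2(signal + 32), for 12393 genes. Points are genes, red for those higher and blue for those lower with DES at an adjusted p under 0.05; all 521 coloured genes lie on the same side of 0 on both days, which is no independent support since both days entered the fit, and Pearson's r over all genes is 0.38.

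The within-day differences come from separate arrays, 1 DES against the mean of 2 oil arrays on the first day and 1 against 1 on the second. Across all 12393 genes they had a Pearson's r of 0.38, a description in which genes are not independent replicates. For Sprr2f the difference was 5.32 on the first day and 6.14 on the second, and for Hdc it was -4.34 and -4.21. Wnt7a, by contrast, differed by -3.398 on the first day and by -1.45 on the second.

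The largest rise was that of Sprr2f (probe set 1449833_at), a small proline-rich protein built into the cornified envelope and known as a strong estrogen target in the mouse uterus. Its signals were 5969.5 and 7485 with DES and 171, 79.2 and 74.2 with oil (log2 5.704, SE 0.42, adjusted p = 2.93e-07). Prap1, a proline-rich acidic secreted protein of uterine and gut epithelium, stood at 1351 and 1349 with DES and 13.7, 41.5 and 18.2 with oil and was called Absent on all oil arrays. That is at least 22.7-fold higher with DES (adjusted p = 1.44e-06). Here and below, "at least" sets the brighter group's mean against the higher, on each dim array, of the gene's own signal and the lowest signal called Present there. It bounds the weak signals only and does not allow for the spread between arrays.

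Several secreted and defence proteins were among the 20 largest rises. Ltf, the iron-binding protein lactoferrin and a classical estrogen target of mouse uterus, gave signals of 2103 and 2479.5 with DES and 193, 162 and 156 with oil and was Absent on all oil arrays (at least 11.5-fold, adjusted p = 1.52e-06). Hp, the hemoglobin-binding protein haptoglobin, gave 836 and 581 with DES and 9.60, 60.3 and 8.73 with oil (at least 11.6-fold, adjusted p = 7.64e-05). Serpina1b, an alpha-1-antitrypsin, gave 364 and 374 with DES and 5.48, 32 and 9.10 with oil (at least 6.79-fold, adjusted p = 0.000896), but it belongs to a cluster of near-identical genes that the probes may not separate, and its call was lost without DES array 2 (adjusted p = 0.0543). The rule that chose the 20 largest rises and falls required DES and oil arrays not to overlap. That they do not overlap in these genes is therefore no added support.

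Enzymes formed another group. Cbr2, a carbonyl reductase, rose from 289, 368 and 807 with oil to 7866 and 6397 with DES (log2 3.86, SE 0.35, adjusted p = 2.64e-06). Akr1c14, an aldo-keto reductase that acts on steroids and has close paralogs, gave 1108 and 597 with DES and 96.0, 28.3 and 40.0 with oil (log2 3.49, SE 0.26, adjusted p = 3.29e-07). Arg1, the cytosolic arginase that cleaves arginine to ornithine and urea, gave 3553 and 2792 with DES and 98.7, 379 and 448 with oil (log2 3.49, SE 0.47, adjusted p = 0.00023). By the same rule, DES and oil arrays did not overlap for these 3 enzymes. Bcat1, which transaminates branched-chain amino acids, rose as well, from signals between 376 and 417 with oil to 2807 and 2883 with DES (log2 2.75, SE 0.19, adjusted p = 1.32e-07).

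Among signalling proteins, Inhbb, the beta B subunit of activin and inhibin, gave signals of 1164 and 1042 with DES and 80.9, 66.0 and 48.0 with oil (log2 3.61, SE 0.21, adjusted p = 3.84e-08). A further Inhbb probe set, Absent on all 5 arrays, differed by 1.56 and did not pass (adjusted p = 0.122). Ramp3, which partners the calcitonin-like receptor, gave 1254 and 1474 with DES and 306, 41.5 and 83.3 with oil (log2 3.297, SE 0.401, adjusted p = 6.84e-05). Ecel1, a membrane metalloprotease known from neurons, gave 1688 and 1459 with DES and 117, 119 and 91.7 with oil (log2 3.55, SE 0.23, adjusted p = 9.68e-08). Chad, the leucine-rich matrix protein chondroadherin known from cartilage, was Absent on all oil arrays, with 505 and 679 with DES and 11, 22.6 and 10.2 with oil (at least 10.5-fold, adjusted p = 1.10e-05), while the defining cartilage markers Col2a1 and Matn1 were Absent on all 5 vagina arrays. Lrmp, a membrane protein of the endoplasmic reticulum, completed this set with 932 and 737 with DES and 82.3, 102 and 25.5 with oil (at least 8.99-fold, adjusted p = 6.37e-07).

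**Figure D2:**
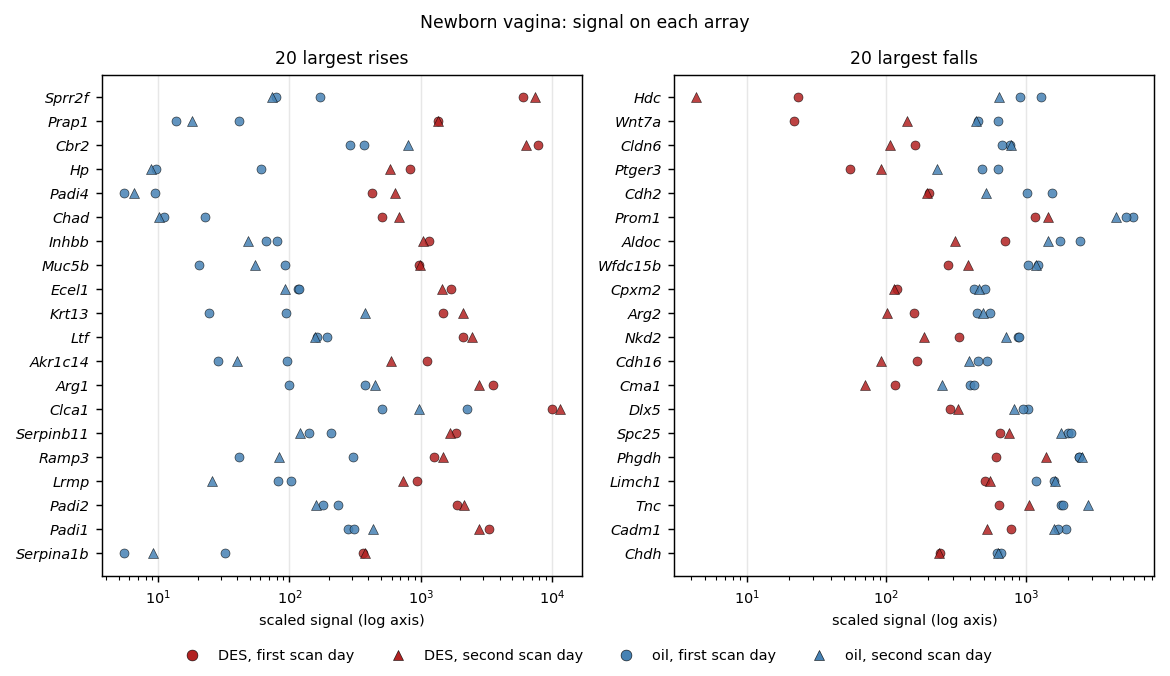
Scaled signal (log axis) of the 20 genes with the largest rises (left) and the 20 with the largest falls (right) on each of the 5 vagina arrays, 1 point per array, red for DES and blue for oil, with triangles for the second scan day. By the rule that chose the genes the colours do not overlap in any line; Sprr2f stands at 5969.5 and 7485 on the DES arrays and Hdc at 23.4 and 4.34.

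Part of the genes of the cornified envelope and of arginine deimination rose. Of 23 measured members of that list, 7 rose and 0 fell, against 2.61% and 1.59% of all genes, and the list's median change was 0.84. Deiminases convert arginine residues of keratins and other proteins to citrulline. Padi1 gave signals of 3313 and 2805 with DES and 278, 311 and 431 with oil (log2 3.07, SE 0.26, adjusted p = 1.13e-06) and Padi2 gave 1896 and 2134 with DES and 179.6, 234 and 160.5 with oil (log2 3.23, SE 0.23, adjusted p = 2.38e-07). Padi4 was Absent on all oil arrays, with 424 and 636 with DES and 5.48, 9.42 and 6.55 with oil (at least 9.35-fold, adjusted p = 1.71e-05). Padi3, which lies between Padi4 and Padi1, was Absent on all 5 arrays and was chosen for mention after its values were seen (117 and 89.9 with DES and 97.3, 99.9 and 40.4 with oil). The same list held Serpinb11, an epithelial serpin, with 1856 and 1675 with DES and 208, 141 and 121 with oil (log2 3.33, SE 0.29, adjusted p = 1.75e-06). Involucrin, Ivl, a scaffold of the cornified envelope, was called Present only on DES array 3. Its signals were 85.1 and 130.3 with DES and 4.11, 3.77 and 9.82 with oil (log2 1.86, adjusted p = 7.64e-05). Sprr3, another envelope precursor and the other member that rose, was chosen for mention after its values were seen (log2 1.79, adjusted p = 0.0306). Sprr1a was Present on every array, with 3841 and 5360.3 with DES and 688, 1163 and 2292 with oil, and did not pass (adjusted p = 0.0827), but passed without oil array 3 (adjusted p = 0.00436). The count was 6 without oil array 1, and 9 of the members measured were Absent on all 5 arrays.

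The 4 deiminase genes lie near one another on chromosome 4, and the windows around their starts are shown because 3 of them rose together and 1 was not detected; that of Sprr2f is shown as the largest rise. Each window runs from 250 bases before to 50 bases after a listed start of the gene, 5′ to 3′ on the gene's strand, from RefSeq on GRCm38.p6. For Padi2 and Padi4 that start lies inside the gene's outer limit. Capitals mark the letters GGTCA or TGACC, the half-site of the estrogen response element, searched on both strands.
Padi1, chr4:140845729-140846028, minus strand: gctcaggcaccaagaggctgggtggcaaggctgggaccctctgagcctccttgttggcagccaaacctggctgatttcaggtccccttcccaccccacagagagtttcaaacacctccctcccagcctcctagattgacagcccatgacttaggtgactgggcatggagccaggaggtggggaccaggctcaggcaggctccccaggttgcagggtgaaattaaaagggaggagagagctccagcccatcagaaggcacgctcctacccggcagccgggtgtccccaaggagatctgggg
Padi2, chr4:140906110-140906409, plus strand: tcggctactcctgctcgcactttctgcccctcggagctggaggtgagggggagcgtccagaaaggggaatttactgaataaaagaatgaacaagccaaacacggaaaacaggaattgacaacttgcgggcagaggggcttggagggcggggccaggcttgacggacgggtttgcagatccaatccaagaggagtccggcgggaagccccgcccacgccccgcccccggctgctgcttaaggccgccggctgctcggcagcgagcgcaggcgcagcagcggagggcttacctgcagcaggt
Padi3, chr4:140810599-140810898, minus strand: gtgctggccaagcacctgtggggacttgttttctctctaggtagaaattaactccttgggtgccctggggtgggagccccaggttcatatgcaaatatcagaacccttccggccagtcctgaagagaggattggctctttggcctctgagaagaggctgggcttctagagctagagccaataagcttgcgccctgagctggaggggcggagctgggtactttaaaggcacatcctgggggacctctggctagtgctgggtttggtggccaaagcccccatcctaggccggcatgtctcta
Padi4, chr4:140774154-140774453, minus strand: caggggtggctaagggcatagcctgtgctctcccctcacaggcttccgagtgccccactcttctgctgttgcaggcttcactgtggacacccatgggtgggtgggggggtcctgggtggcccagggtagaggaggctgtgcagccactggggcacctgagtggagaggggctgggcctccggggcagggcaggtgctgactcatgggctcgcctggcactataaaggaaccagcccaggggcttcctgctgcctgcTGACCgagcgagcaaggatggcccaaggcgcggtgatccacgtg
Sprr2f, chr3:92364937-92365236, plus strand: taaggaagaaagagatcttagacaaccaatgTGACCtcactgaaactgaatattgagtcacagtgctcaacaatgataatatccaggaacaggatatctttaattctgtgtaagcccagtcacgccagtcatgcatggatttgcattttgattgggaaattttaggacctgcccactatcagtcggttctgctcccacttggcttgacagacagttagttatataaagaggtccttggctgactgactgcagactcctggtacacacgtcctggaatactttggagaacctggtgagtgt

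The Padi4 and Sprr2f windows held 1 half-site each and those of Padi1, Padi2 and Padi3 held none. Windows were matched for 243 of the genes that rose and 158 of those that fell, some with several starts. A half-site stood in 40.5% of all 32851 promoter windows of the reference table, in 38.8% of the 12566 windows of genes on the chip, in 40.7% of the 324 windows of genes that rose and in 34.3% of the 207 windows of genes that fell. The full element, GGTCANNNTGACC, stood in 23 of all windows, in 3 of those of genes on the chip and in none of those of genes that rose or fell. A match describes letters in a short window and is not a binding site.

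Part of the markers of stratified and basal epithelium rose. Of 25 measured members of that list, 11 rose and 0 fell, against 2.61% and 1.59% of all genes, with a median change of 0.98. Trp63, which specifies basal cells, gave signals of 697 and 682 with DES and 195, 339 and 294 with oil, so the DES arrays stood above all 3 oil arrays (log2 1.31, SE 0.31, adjusted p = 0.0253). Krt5, the basal keratin, gave 4176 and 5200.5 with DES and 581, 959 and 1209.9 with oil (log2 2.24, SE 0.34, adjusted p = 0.000764). Its partner Krt14 gave 1649.6 and 3318 with DES and 226, 484 and 783 with oil (log2 2.19, SE 0.45, adjusted p = 0.00914). Further Trp63 probe sets differed by 1.04 and 0.66 and did not pass (adjusted p = 0.162 and 0.44). A further Krt14 probe set differed by 2.39 and the third by 0.06. Krt15, another basal keratin, gave 8096 and 14311 with DES and 1193, 3161 and 5979.8 with oil (log2 1.76, SE 0.403, adjusted p = 0.0192). Oil array 3 was nearer to the DES arrays than the other oil arrays were for Krt5, Krt14, Krt15, Krt4 and Krt6a.

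Of the listed keratins of upper layers and of activated epithelium, 3 rose. Krt13, a keratin of the upper layers of non-cornified stratified epithelia, gave signals of 1486 and 2083 with DES and 94.6, 24.5 and 378 with oil (log2 3.55, SE 0.61, adjusted p = 0.00228). A further Krt13 probe set, Absent on all 5 arrays, differed by 0.72 (adjusted p = 0.12). Krt4, the partner of Krt13, gave 5114 and 7867 with DES and 495, 1080.0 and 3447 with oil (log2 2.304, SE 0.62, adjusted p = 0.0498). Krt6a, a keratin of activated epithelium whose near-identical copy Krt6b may share its probes, gave 2845 and 3767 with DES and 483, 826 and 1561 with oil (log2 1.896, SE 0.41, adjusted p = 0.0141). Krt1 and Krt10, keratins of cornifying layers, did not pass (254 and 386 with DES and 147, 155 and 80.1 with oil, adjusted p = 0.157, and 362 and 719.9 with DES and 309.8, 332 and 277 with oil, adjusted p = 0.148). Krt17, a keratin of activated epithelium, had its highest signal on oil array 3 (264 and 391 with DES and 304, 303 and 978 with oil; adjusted p = 0.71), and Krt16 was Absent on all 5 arrays. The other 4 members that rose, named after their values were seen, were the desmosome genes Pkp1 (log2 1.45, adjusted p = 0.0184) and Perp (log2 1.02, adjusted p = 0.00469), the hemidesmosomal collagen Col17a1 (log2 1.68, adjusted p = 0.0163) and the laminin chain Lama3 (log2 0.98, adjusted p = 0.0253).

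These calls depended on the arrays used, and each of the 11 was lost without at least 1 of the DES arrays. In the fit without oil array 1, 4 members passed. Leaving out DES array 2 left 1, DES array 3 left 2, and the fit without the scan day block gave 6. Without the block Trp63 had an adjusted p of 0.118, Krt14 of 0.053, Krt15 of 0.167 and Krt4 of 0.104, and Krt5 had 0.0184. Summed over the 6 defining markers, signals were 21219 and 33462 with DES and 2784, 6048 and 12091 with oil. On all oviduct and uterus arrays that sum was between 240.2 and 1631, below every vagina array. In uterus it was also higher with DES, at 1190.3, 695 and 1631 against 240.2, 268 and 264 with oil. By the test between organs, 0 of the 25 members had a higher DES effect in vagina than in uterus and 1 had a lower one.

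**Figure D3:**
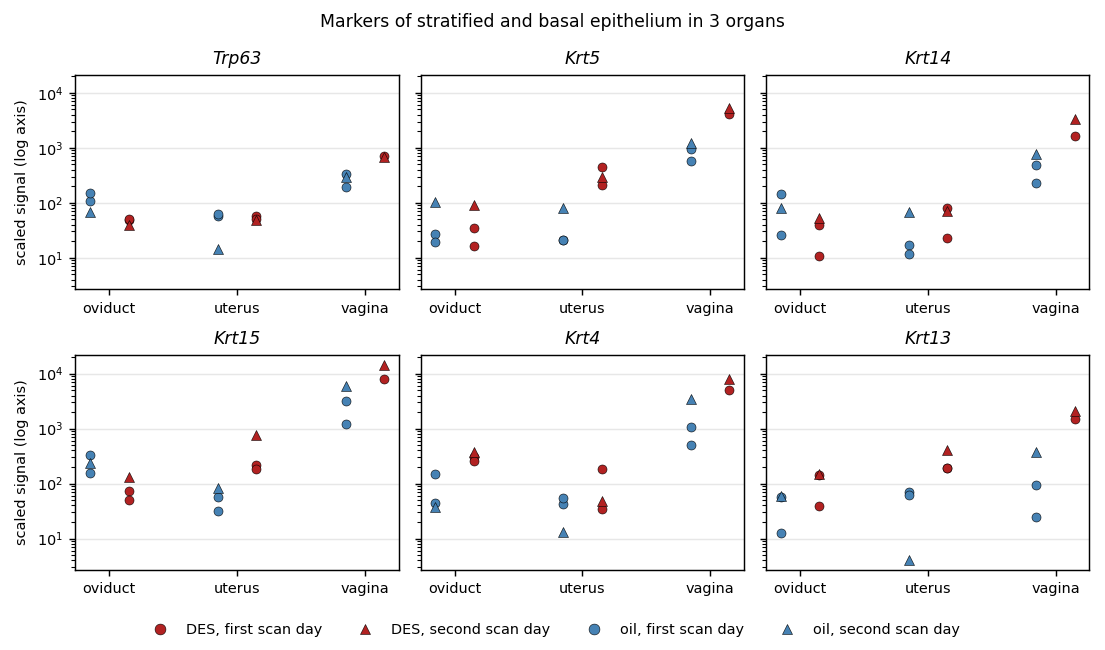
Scaled signal (log axis) of 6 markers of stratified and basal epithelium on every MOE430A array, by organ, blue for oil and red for DES, with triangles for the second scan day. Vagina carries the highest signals of Trp63, Krt5, Krt14 and Krt15 in either treatment, and within vagina both DES points lie above the 3 oil points in every panel.

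Simple epithelium genes split. Of 31 measured, 4 rose and 4 fell, and the median change was 0.07. Krt19 gave 8086 and 10435 with DES and 3329, 2501 and 5155 with oil (log2 1.29, SE 0.15, adjusted p = 4.61e-05) and Krt7 gave 3206 and 3841 with DES and 916, 1216 and 1810.2 with oil (log2 1.395, SE 0.19, adjusted p = 0.000259). The general simple keratins Krt8 and Krt18 were Present on every array and did not pass (adjusted p = 0.586 and 0.321), and neither did the epithelial adhesion gene Epcam (adjusted p = 0.475). Cldn10, a claudin of ion-conducting tight junctions, rose (1361 and 1111 with DES and 277, 275 and 215 with oil; log2 2.204, SE 0.22, adjusted p = 9.27e-06), as did Elf3, an epithelial transcription factor (log2 1.19, adjusted p = 0.0001). Cldn6, a claudin of embryonic epithelia, fell from 777, 671 and 786 to 160.1 and 107 (log2 -2.198, SE 0.22, adjusted p = 8.75e-06). Prom1, a protein of apical membrane protrusions, fell from 5840.1, 5253 and 4449.7 to 1164 and 1435 (log2 -1.94, SE 0.14, adjusted p = 2.93e-07).

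Mucous and secretory genes were less uniform. Of 26 measured members, 5 rose and 1 fell. Muc5b, a gel-forming mucin, was Absent on all oil arrays and gave 972 and 984 with DES and 20.6, 92.4 and 54.2 with oil (at least 11.7-fold, adjusted p = 5.23e-05). Clca1, a protein secreted by goblet cells, gave 10011 and 11592 with DES and 2237, 511 and 965 with oil (log2 3.35, SE 0.74, adjusted p = 0.0156). Its oil arrays spread widely and its call was lost without DES array 2, DES array 3 and oil array 2, with adjusted p-values up to 0.139, and a further probe set differed by 0.805 (adjusted p = 0.387). Agr2, a disulfide isomerase needed for mucin folding, gave 1029 and 1382 with DES and 1337, 56.5 and 90.6 with oil, so oil array 1 matched the DES arrays while the other oil arrays were far lower, and it did not pass (adjusted p = 0.149), though it did without oil array 1 (adjusted p = 0.00194). Fcgbp, a mucus protein, gave 1066 and 1769 with DES and 943, 58.4 and 211 with oil, with oil array 1 near the lower DES array (adjusted p = 0.085). Muc5ac passed (adjusted p = 0.0183) although it was Absent on all 5 arrays. Wfdc2, a secreted WAP-domain protein, was the member that fell, from 7749.8, 7447 and 8067 to 3589 and 3037 (log2 -1.23, SE 0.13, adjusted p = 1.29e-05). Without oil array 1, 7 members were higher and 1 lower. Leaving out DES array 2 or 3 left 2 and 3 higher, and leaving out oil array 2 left 3.

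**Figure D4:**
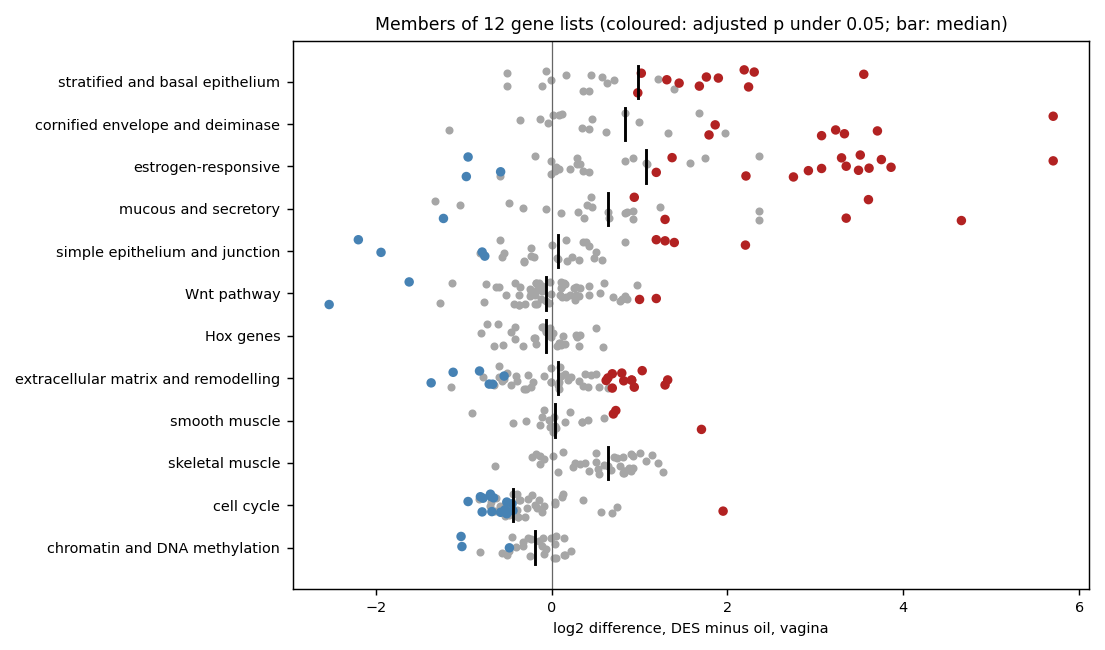
Log2 difference between DES and oil vagina for each measured member of 12 gene lists, 1 point per gene. Red and blue points passed an adjusted p of 0.05, grey points did not, and the black bar is the list's median; the medians run from -0.44 for the cell cycle to 1.07 for estrogen-responsive genes. Vertical scatter within a list carries no value.

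The estrogen-responsive list, like the others, was drawn up with earlier results of these data known, so its direction is not independent evidence. It had 37 measured members, of which 14 rose and 3 fell, and its median was 1.07. Greb1, a cofactor of the estrogen receptor, was called Present only on DES array 3 and gave 175 and 237 with DES and 58.9, 92.4 and 40.0 with oil (log2 1.37, adjusted p = 0.00981). That call was lost without DES array 3 (adjusted p = 0.161). Lcn2, the siderophore-binding lipocalin, rose from 295, 269.5 and 224 to 2487 and 1740.2 (log2 2.92, SE 0.23, adjusted p = 4.67e-07). Klf4, a transcription factor of differentiating epithelium, rose from 522, 418 and 331 to 2195 and 1816 (log2 2.21, SE 0.18, adjusted p = 7.63e-07). The 3 members that fell were Ccnd1, Mki67 and Ptgds. Without oil array 1 the list had 16 higher and 2 lower.

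The receptors themselves did not pass. Esr1, the estrogen receptor alpha gene, gave weak signals of 103 and 251 with DES and 165, 123 and 194 with oil and was called Present only on DES array 3 and oil array 3 (adjusted p = 0.953). Pgr, the progesterone receptor and a textbook estrogen target, was Present on both DES arrays and Absent on all oil arrays. It gave 122 and 133 with DES and 39.8, 88.6 and 57.1 with oil and missed the threshold (log2 0.83, adjusted p = 0.172). Of 22 receptors and coregulators measured, 2 rose, namely the corepressor Nrip1 (2383 and 1923 with DES and 935, 935 and 962 with oil; log2 1.21, SE 0.23, adjusted p = 0.00579) and Hsd11b2, which inactivates glucocorticoids (934 and 831 with DES and 472, 369 and 358 with oil; log2 1.09, SE 0.22, adjusted p = 0.00743). Both were lost without DES array 2, and Nrip1 also without DES array 3. A further Nrip1 probe set differed by 0.86 and did not pass (adjusted p = 0.0534).

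The largest fall was that of Hdc (probe set 1454713_s_at), the enzyme that makes histamine from histidine. It was Present on all oil arrays and Absent on both DES arrays, with signals of 23.4 and 4.34 with DES and 1287, 914 and 641 with oil, which is at least 17.3-fold lower with DES (adjusted p = 3.93e-06). A further Hdc probe set changed by -3.91. Mast cells are a known source of histamine, and 2 of 4 defining mast cell markers fell. Cma1, mast cell chymase, gave 115 and 69.9 with DES and 400.3, 424 and 251 with oil and was Absent on both DES arrays (at least 3.12-fold lower, adjusted p = 0.000195). Cpa3, mast cell carboxypeptidase, gave 218 and 96.4 with DES and 308, 349 and 276 with oil and was called Present only on oil array 3 (log2 -0.84, adjusted p = 0.0493), a call lost when any single vagina array was left out. Tpsb2, a mast cell tryptase, gave 182 and 146 with DES and 200.2, 204 and 259 with oil (adjusted p = 0.533), and Mcpt4, another chymase, was Absent on all 5 arrays; both were named after their values were seen. Of the other mast cell genes on the leukocyte and mast cell list, none passed. Tpsab1 (log2 -0.56) and Fcer1a (log2 -0.27) were lower and Kit (log2 0.75) and Ms4a2 (log2 0.26) higher with DES. Summed over the 4 defining markers the signals were 532 and 335 with DES and 1016, 1007 and 826 with oil. That sum was lower with DES in the other organs too. It went from 1826, 1769 and 1617 with oil to 521, 590.1 and 409.9 with DES in uterus. In oviduct it went from 2566, 2283 and 1919 to 544, 507 and 499. Hdc itself was higher with DES in oviduct and low in uterus with either treatment, as given below. The part of mast cells in the fall of Hdc was not tested.

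Wnt7a, a ligand made by Müllerian duct epithelium and needed for normal female duct patterning, fell. It was Present on all oil arrays at 629, 452 and 441 and Absent on both DES arrays at 21.7 and 141 (at least 4.72-fold lower, adjusted p = 0.000417). Both DES arrays lay below the lowest oil array. Of 61 measured Wnt pathway genes, 2 rose and 2 fell, near the 2.61% and 1.59% of all genes, with a median of -0.06. Wnt4, another duct ligand, rose from 313, 443 and 547 to 952 and 1099 (log2 1.19, SE 0.19, adjusted p = 0.00104). Sfrp2, a secreted Wnt antagonist of stroma, rose from 2518, 2594 and 3022 to 5079 and 6316 (log2 1.0, SE 0.13, adjusted p = 0.000139). Nkd2, an intracellular antagonist that binds Dishevelled, fell from 879, 893 and 717 to 335 and 187 (log2 -1.62, SE 0.25, adjusted p = 0.000954). Wnt5a, the stromal ligand, gave 1949.8 and 1439.7 with DES and 1541, 1608 and 1144 with oil and did not pass (adjusted p = 0.466), and neither did Wnt11 (adjusted p = 0.578).

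Adhesion and apical genes made up part of the other large falls. Cdh2, N-cadherin, fell from 1016, 1539.9 and 523 to 203 and 195 (log2 -1.98, SE 0.25, adjusted p = 0.000121). Cdh16, a cadherin of kidney and other duct epithelia, was Absent on both DES arrays, at 167 and 91.6 with DES and 529, 458 and 392 with oil (at least 3.12-fold lower, adjusted p = 6.07e-05). Cadm1, an immunoglobulin-type adhesion molecule, fell from 1960.4, 1711 and 1607 to 781 and 530.1 (log2 -1.35, SE 0.14, adjusted p = 1.06e-05). By the rule that chose the largest falls, both DES arrays lay below every oil array in each of these genes, which is no added support. Ptger3, a prostaglandin E receptor, fell from 633, 488 and 232 to 55.0 and 92.0 (log2 -2.09, SE 0.33, adjusted p = 0.000896), a call lost without DES array 2 (adjusted p = 0.061) and in the vagina arrays alone (adjusted p = 0.0629).

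Metabolic enzymes were among the genes that fell, as others were among those that rose, and no list of them was counted. Aldoc, a glycolytic aldolase, gave 707 and 311 with DES and 2464, 1749 and 1448 with oil (log2 -1.83, SE 0.203, adjusted p = 2.62e-05). Arg2, the mitochondrial arginase, gave 157 and 101 with DES and 551, 445 and 492 with oil (log2 -1.65, SE 0.27, adjusted p = 0.00128), the opposite direction to Arg1. Phgdh, the first enzyme of serine synthesis, gave 612 and 1387 with DES and 2409, 2413 and 2540.2 with oil (log2 -1.48, SE 0.22, adjusted p = 0.000607), but 3 further probe sets differed by only -0.48 to -0.58, and the call was lost without DES array 2 and without the scan day block (adjusted p = 0.0584 and 0.0643). Chdh, mitochondrial choline dehydrogenase, gave 242 and 239 with DES and 627, 667 and 636 with oil (log2 -1.34, SE 0.16, adjusted p = 5.03e-05). The remaining genes among the 20 largest falls were Wfdc15b, a WAP-domain protein (log2 -1.75, adjusted p = 1.09e-05), Cpxm2, a carboxypeptidase-like protein (log2 -1.72, adjusted p = 4.81e-05), Limch1, an actin regulator (log2 -1.401, adjusted p = 0.000291), and those described with their groups. Further probe sets did not pass for Ptger3 (log2 -0.26, adjusted p = 0.759), Aldoc (log2 -0.87, adjusted p = 0.175), Cpxm2 (log2 -1.36, adjusted p = 0.0511) and Spc25, described with the cell cycle (log2 -0.71, adjusted p = 0.387).

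Homeobox and other duct transcription factors moved in both directions. Of 56 measured, 3 rose and 6 fell. Msx2, a homeobox gene of duct epithelium and stroma, fell from 873, 1072 and 817 to 389 and 316 (log2 -1.28, SE 0.19, adjusted p = 0.000444). Dlx5, a related homeobox gene, fell from 1039, 950.0 and 825 to 287 and 326 (log2 -1.53, SE 0.31, adjusted p = 0.00805), a call lost without either DES array. Sox17 fell from 1474, 1421 and 660.1 to 654 and 353 (log2 -1.08, SE 0.23, adjusted p = 0.0104), but DES array 2 was close to oil array 3, and the call was lost without DES array 3. A further Sox17 probe set differed by -0.48 and did not pass (adjusted p = 0.255). Foxc1 rose from 121, 256 and 151 to 527 and 693 (log2 1.74, SE 0.39, adjusted p = 0.016), a call lost without DES array 3 and oil array 1. Foxa1, a factor of endodermal epithelium including that of the sinus, gave 882 and 1136 with DES and 269, 403 and 475 with oil and did not pass (adjusted p = 0.0738), but passed without oil array 3 (adjusted p = 0.0402). Without DES array 2 the list had 2 higher and 2 lower, and without DES array 3 it had 1 and 2. Without oil array 1 it had 2 higher and 4 lower.

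No Hox gene passed. Of 31 measured, 1 had an unadjusted p under 0.05 by limma, with or without the scan day block, and the median change was -0.06. Hoxa13, which patterns the most posterior duct, gave 414 and 451 with DES and 239.9, 317 and 306 with oil (adjusted p = 0.447). Hoxa10 gave 564 and 439.8 with DES and 819.8, 839 and 478 with oil (adjusted p = 0.51) and Hoxa11 gave 459 and 530.1 with DES and 610.1, 520.2 and 374 with oil (adjusted p = 0.982). For both of these genes DES and oil arrays overlapped. The hedgehog list also had 0 of 17 past the threshold, with 3 at an unadjusted p under 0.05 and 1 without the block. Shh was Absent on all 5 vagina arrays.

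In the activin, BMP and TGF beta pathway, 5 of 48 measured genes rose and 2 fell. Besides the ligand subunit Inhbb these were the receptors Tgfbr2 (3969.7 and 3598 with DES and 2405, 2169 and 2609 with oil; log2 0.65, SE 0.12, adjusted p = 0.00469), Tgfbr3 (log2 1.11, adjusted p = 0.00251) and Acvr1b (log2 0.66, adjusted p = 0.0159) and the transducer Smad1. Those that fell were the pseudoreceptor Bambi (log2 -0.77, adjusted p = 0.00414) and the BMP target Id2 (1181 and 583 with DES and 2553, 2733 and 888 with oil; log2 -0.93, SE 0.19, adjusted p = 0.00949), whose groups overlapped and which had an adjusted p of 0.495 without the scan day block. The other activin subunit gene Inhba gave 467 and 501 with DES and 409, 716 and 749.9 with oil and the activin-binding protein gene Fst gave 187 and 228 with DES and 184, 141 and 203 with oil, and neither passed (adjusted p = 0.839 and 0.811). Apart from Inhbb, each gene given here with values that passed was lost without at least 1 of the DES arrays, and without DES array 2 the list had 1 higher and 1 lower, against 4 and 0 without DES array 3 and 4 and 2 without oil array 1.

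Extracellular matrix genes changed in both directions, with 12 of 54 higher, 6 lower and a median of 0.07. Col6a3, a chain of the microfibrillar type VI collagen, rose from 4550.1, 4220.1 and 7004 to 12149 and 14467 (log2 1.29, SE 0.13, adjusted p = 9.67e-06). Col6a2, its partner chain, rose from 8238, 6932 and 8982 to 15435 and 18618 (log2 1.03, SE 0.12, adjusted p = 4.81e-05). Lum, a proteoglycan that spaces collagen fibrils, rose from 2052, 3253 and 3702 to 7629 and 7102 (log2 1.32, SE 0.18, adjusted p = 0.000259). Tnc, the glycoprotein tenascin C, fell from 1792, 1860.3 and 2788 to 640.5 and 1063 (log2 -1.37, SE 0.25, adjusted p = 0.00334), a call lost without DES array 2. Emilin3 fell from 1335, 1072 and 1222 to 517 and 593 (log2 -1.12, SE 0.19, adjusted p = 0.00205). The collagen and matrix glycoprotein genes Col3a1 and Sparc did not pass (adjusted p = 0.83 and 0.428). Htra1, a secreted serine protease that degrades matrix proteins and is not on that list, rose from 781, 922 and 1027 to 3424 and 5589 (log2 2.17, SE 0.15, adjusted p = 1.31e-07). The list's counts were 4 higher and 3 lower without the scan day block, 6 and 2 without DES array 2, and 8 and 5 without oil array 1.

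Of the smooth muscle contractile genes, the best known did not pass. Acta2, smooth muscle actin, gave 18032 and 19345 with DES and 15043, 15595 and 20077 with oil (adjusted p = 0.724) and Myh11, its myosin heavy chain, gave 1576 and 1716 with DES and 1923, 1481 and 2667 with oil (adjusted p = 0.577). Of 21 members, 3 rose, against 2.61% of all genes, the clearest being the calmodulin-binding Pcp4 (812 and 598 with DES and 263, 198 and 183 with oil; log2 1.704, SE 0.29, adjusted p = 0.00198), which was lost without DES array 3 and without the block (adjusted p = 0.0524 and 0.128). Skeletal muscle genes had a median change of 0.64, yet 0 of 39 passed, and 6 had an unadjusted p under 0.05 by limma (5 without the block). Acta1, skeletal actin, gave 4175 and 5433 with DES and 1056, 4186 and 3406 with oil, with oil array 1 alone far below the rest. The part of muscle RNA in other changes was not tested. The smooth muscle count was 1 without DES array 2 or without oil array 1, 0 without DES array 3 and 2 without oil array 2.

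Part of the cell cycle genes fell. Of 50 measured, 14 fell and 1 rose, against 1.59% and 2.61% of all genes, with a median of -0.44. Ccnd1, the G1 cyclin D1, fell from 2444, 2292 and 2808 to 1294 and 1313 (log2 -0.95, SE 0.13, adjusted p = 0.000249). Tk1, thymidine kinase, fell from 1035, 988 and 1399 to 617 and 738 (log2 -0.78, SE 0.13, adjusted p = 0.00126), and Top2a, which untangles replicated DNA, fell from 2942, 2509 and 3003 to 1603 and 1964 (log2 -0.696, SE 0.13, adjusted p = 0.00416). Spc25, a kinetochore protein outside that list, was among the 20 largest falls, from 2000.2, 2098 and 1784 to 659 and 764 (log2 -1.48, SE 0.17, adjusted p = 4.81e-05). The member that rose, Gas6, codes for a secreted ligand of receptor tyrosine kinases rather than a cell cycle factor (2420.2 and 2947 with DES and 599, 603 and 725 with oil; log2 1.95, SE 0.099, adjusted p = 5.87e-09). Without the scan day block 2 members were lower, without DES array 2 or 3 5 and 3, and without oil array 1 or 2 6 and 7. Top2a and Tk1 had adjusted p-values of 0.105 and 0.19 without the block, and Ccnd1 had 0.00303.

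Of 28 chromatin and DNA methylation genes, 3 fell and 0 rose. Uhrf1, which guides maintenance methylation to replicated DNA, fell from 1204, 1310.0 and 1510.0 to 572 and 777 (log2 -1.03, SE 0.17, adjusted p = 0.00188). A further Uhrf1 probe set differed by -0.66 and did not pass (adjusted p = 0.0795). Hells, a remodelling helicase, fell from 1043, 892 and 612 to 392 and 369 (log2 -1.02, SE 0.19, adjusted p = 0.00449). Dnmt1, the maintenance methyltransferase, gave 984 and 1136 with DES and 1269, 1261 and 1762 with oil (log2 -0.48, SE 0.12, adjusted p = 0.0419), a call lost without any 1 of the 5 vagina arrays. A further Dnmt1 probe set differed by -0.39 and did not pass (adjusted p = 0.127). Uhrf1 and Hells were lost without DES array 2 (adjusted p = 0.0564 and 0.132), and 2 members were lower without oil array 1.

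Among other cell types, 0 of 4 macrophage markers passed. Of 18 endothelial genes 0 passed, with 3 at an unadjusted p under 0.05 by limma and 2 without the block. The calgranulin genes of neutrophils and stratified epithelium S100a8 (379 and 725 with DES and 109.7, 232 and 189 with oil; log2 1.43, adjusted p = 0.00626) and S100a9 (log2 0.93, adjusted p = 0.031) and the lysozyme gene Lyz2 (log2 0.94, adjusted p = 0.00903) rose, and each was lost without at least 1 DES array. Wt1, a mesothelial and stromal factor, fell from 648, 360.0 and 259 to 187 and 169 (log2 -0.96, adjusted p = 0.0285), a call lost without DES array 2, DES array 3 and oil array 1. Summed over 4 measured neuron and Schwann cell markers the signals were 1758 and 1909 with DES and 3098, 3067 and 4571 with oil. The groups did not overlap, as was so for 24.6% of all single genes. Nefl, Nefm and Stmn2 did not pass (adjusted p = 0.165, 0.155 and 0.18), Sox10 was Absent on all 5 arrays, and their median change was -0.93. Of 32 genes on the wider neuron and Schwann list, 1 rose (Ngfr, a neurotrophin receptor also made by other cells) and 1 fell, with a median of -0.34. Changes were above 0 for 9 of the 32, including Mbp (log2 0.94) and S100b (log2 0.48), which did not pass. The one that fell was Gap43, a growth cone protein (412 and 263 with DES and 742, 584 and 866 with oil; log2 -1.02, SE 0.26, adjusted p = 0.0392), a call lost without either DES array, without oil array 1, without oil array 3, without oil uterus array 1 and without the block. On that list 12 genes had an unadjusted p under 0.05 by limma and 9 without the block. The part of nerve RNA in other changes was not tested. Summed mesothelial markers were 577 and 555 with DES and 987, 671 and 607 with oil, highest on oil array 1.

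The change with DES in vagina was then set against that in uterus, in the same model and on separate arrays. Of 22626 probe sets, 116 differed (0.513%), 50 (0.221%) with a higher and 66 (0.292%) with a lower effect in vagina. Without the scan day block 39 did. The count was 44 without DES array 2, 58 without DES array 3, 100 without oil array 1, 72 without oil array 3 and 71 without DES uterus array 1. Leaving out oil uterus array 1 or 3 left 28 and 32 higher. Genes with higher DES signals in both organs could still differ in size. Cbr2 went from 21.4, 29.0 and 103 to 12122, 10988 and 10933 in uterus, and its effect in vagina was smaller (difference -3.36, adjusted p = 0.00125). Clca1 went from 4.27, 323 and 4.87 to 19888, 16924 and 19337 in uterus (difference -4.56, adjusted p = 0.0489).

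Some genes that rose in vagina had no higher signals with DES in uterus. Htra1 in uterus gave 1105, 1201 and 1784 with oil and 948, 1008 and 1149 with DES, so the difference of effects was 2.53 (adjusted p = 5.94e-06). Wnt4 in uterus gave 1160.4, 1169.9 and 1375 with oil and 672, 676 and 501 with DES (difference 2.17, adjusted p = 0.000288). Hdc, which fell in vagina, was low in uterus with either treatment, at 12.8, 33.7 and 88.5 with oil and 12, 17.4 and 14.3 with DES (difference -3.78, adjusted p = 0.00196). Ackr3, a scavenger receptor for the chemokine Cxcl12, rose in vagina from 421, 556 and 485 to 1443 and 824 and gave 1094, 989.8 and 599 and 561, 542 and 324 in uterus (difference 2.08, adjusted p = 0.000348), though in vagina its call was lost without the block (adjusted p = 0.141).

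Others did not pass in vagina and stood higher with DES on every uterus array. Myh11 gave 247, 214 and 288 with oil and 1901, 1218 and 1212 with DES in uterus (difference -2.66, adjusted p = 0.000141) while it did not pass in vagina (adjusted p = 0.577). Tspan8, a tetraspanin of mucosal epithelia, gave 1139 and 1249 with DES and 812, 650.3 and 1184 with oil in vagina, 3.20, 9.29 and 75.5 with oil and 995, 883 and 933 with DES in uterus (difference -3.75, adjusted p = 0.000232). Foxa2, the factor of uterine glands, gave 470.4 and 347 with DES and 546, 441 and 289 with oil in vagina, and 93.9, 152 and 43.0 with oil and 733, 557 and 481 with DES in uterus (difference -2.28, adjusted p = 0.00125). Sprr2f, Inhbb, Ltf and Wnt7a did not differ by the test (adjusted p = 0.754, 0.961, 0.903 and 0.983), which does not show that the organs act alike.

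Against oviduct, 466 probe sets differed (2.06%), 201 (0.888%) with a higher and 265 (1.17%) with a lower effect in vagina, and 194 did without the block. The count was 236 without DES array 2, 299 without DES array 3, 393 without oil array 1, and 296 without the 3 arrays of other organs that carried muscle RNA, a choice made after seeing the data. Both comparisons share the vagina arrays. Hdc gave 569, 261 and 594 with oil and 2888, 2653 and 1632 with DES in oviduct, where every DES array was higher (difference -6.68, adjusted p = 2.25e-06). Prom1 gave 898, 1112 and 897 and 3011, 2759 and 3043 (difference -3.52, adjusted p = 9.94e-09), and Aldoc 1238, 929.9 and 1127 and 4606, 5067 and 3705 (difference -3.82, adjusted p = 3.76e-07). Emb, embigin, a partner of lactate transporters, did not pass in vagina, at 977 and 1020.3 with DES and 908, 856 and 1109 with oil, but gave 256, 140.4 and 233 with oil and 5443, 5840.2 and 5687 with DES in oviduct (difference -4.54, adjusted p = 8.48e-09).

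Effects were higher in vagina than in oviduct for Padi4 (difference 3.21, adjusted p = 0.00241), Sprr2f (difference 3.16, adjusted p = 0.00417), Inhbb (difference 2.097, adjusted p = 0.00043) and Ltf (difference 2.28, adjusted p = 0.0042). Padi4 in oviduct gave 5.81, 8.35 and 9.73 with oil and 8.19, 3.15 and 93.2 with DES. Among the keratins Krt15 and Krt14 differed too (differences 2.998 and 2.91, adjusted p = 0.00448 and 0.013). Both differences exceeded the rise in vagina (log2 1.76 and 2.19), so they also hold a lower fitted level with DES in oviduct. For Krt14 all 6 oviduct signals lay below the lowest vagina signal. Gdf10, a TGF beta family ligand, did not pass in vagina, at 3157 and 2702 with DES and 2409, 1999.8 and 3307 with oil, and gave 1241, 1384 and 1502 with oil and 106, 139 and 87.2 with DES in oviduct (difference 3.51, adjusted p = 2.57e-06).

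**Figure D5:**
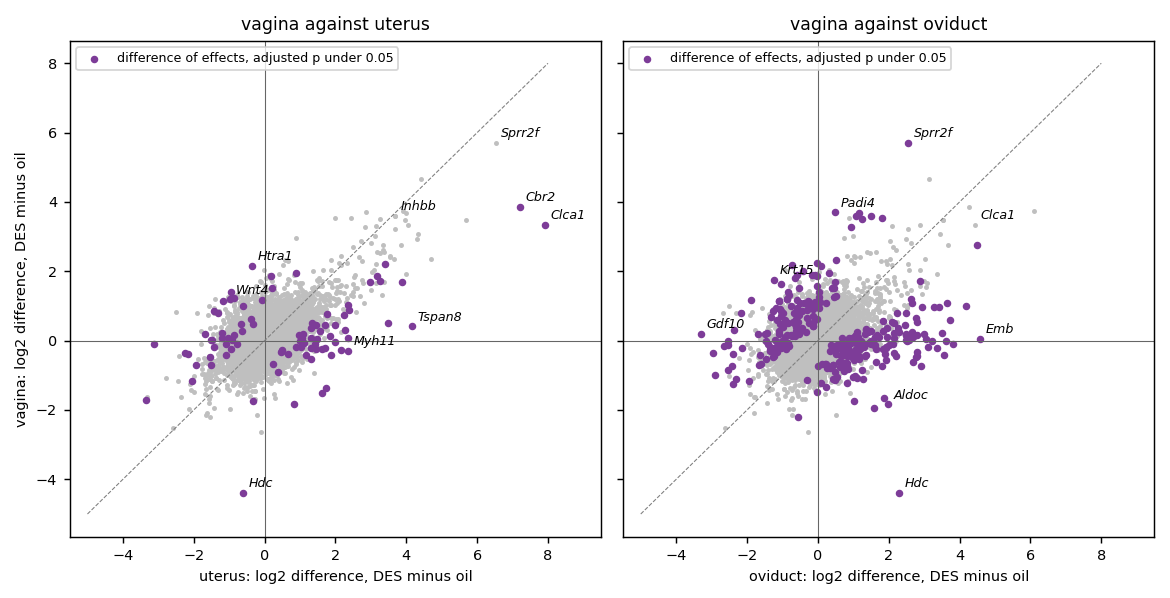
Log2 difference between DES and oil in vagina (vertical axis) against that in uterus (left) and in oviduct (right) for 12393 genes, 1 point per gene, with the line of equal effects dashed. Purple points differ between the organs at an adjusted p under 0.05. Hdc lies at -4.39 in vagina, -0.61 in uterus and 2.296 in oviduct, and Sprr2f at 5.704, 6.52 and 2.55.

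The DES vagina array on the MG_U74Av2 chip gave detection calls for 8008 of the same genes. It called Present 81% of the 5239 genes Present on both DES arrays of the newer chip and 8.66% of the 1824 genes Absent on both. Of the 20 largest rises, 16 are on the older chip and 14 of them were called Present by at least 1 probe set, among them Sprr2f, Ltf, Hp, Chad, Inhbb, Arg1 and the 3 deiminases. Prap1 and Cbr2 were the exceptions, called Absent there although Cbr2 was Present on all 5 arrays of the newer chip. Of the 20 largest falls 16 are on it, and 10 were called Present; Hdc, Wnt7a, Cldn6, Cdh16 and Cpxm2 were not, nor was Ptger3. Krt5, Krt14 and Krt15 were Absent and Trp63 and Krt13 Present. A call on another chip depends on other probes, so this array bears on which genes were detectable with DES and not on how far they changed.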

How the data were processed

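Total RNA of organs was measured on Affymetrix arrays. The probe set signals deposited by the authors are intensities on a linear scale, not scaled between arrays, and the value table equals the per-array files except for oil oviduct array 1, whose file repeats that of DES oviduct array 1. The deposited files also hold a detection p-value and a call (Present, Marginal or Absent) per probe set, per the file headers. No label or header used here names the software version or a genome build (not given in the sources used here). From 22626 probe sets (64 control probe sets left out), each array was scaled to a 2% trimmed mean of 500 and log2(signal + 32) was taken. limma 3.58.1 in R 4.3.3 fitted group means over 17 MOE430A arrays with the scan day, read from the experiment records, as a fixed block, moderated with a variance trend, and p-values were adjusted by Benjamini-Hochberg over all probe sets with a threshold of 0.05. The platform annotation gives 1 gene symbol to 20380 probe sets, several to 691 and none to 1555, and a gene is represented by the probe set with the highest mean signal. Named were the 20 largest rises and falls that passed, were Present throughout the higher group, did not overlap and kept their direction on both scan days, a fixed gene list, members of the gene lists, the largest differences between organs, and genes said to be chosen after their values were seen. Members and lists were chosen with earlier results of these data known. The fit was tested on simulated data, where it recovered 72% of probe sets changed by 1 and 99% of those changed by 2 on the log2 scale and also called 10 unchanged probe sets. Changes were placed only in the brighter probe sets, and the simulated noise was independent between arrays. Recovery in weak probe sets or under shifts of a whole array was therefore not tested. Near-identical genes (Serpina1b, Akr1c14, the Sprr2 family, Krt6a and Hspa1b) may share probes. Alternatives were another normalization, pseudocounts of 1 and 100, filters on detection, no variance trend, other blocks, other sets of arrays and other probe sets. Promoter windows came from RefSeq.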

Additional observations from a re-analysis of the deposited data

Results flagged for a closer look

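The DES effect of each gene below differed between vagina and another organ by an interaction contrast in limma, and its value is the vagina effect minus that of the other organ on the log2(signal + 32) scale, with the adjusted p over all probe sets. A higher effect in vagina can thus come from a larger fall in the other organ, and a lower effect from a larger rise there. The genes are those chosen by the naming rule, so they do not count how often organs differed.

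Against uterus, the effect in vagina was higher for Htra1 at 2.53 (adjusted p = 5.94e-06), Efhd1 at 2.26 (adjusted p = 0.0252), Wnt4 at 2.17 (adjusted p = 0.000288), Lgr5 at 2.13 (adjusted p = 0.0286) and Ackr3 at 2.08 (adjusted p = 0.000348). It was also so for Crabp1 at 1.88 (adjusted p = 0.00114), Upk3b at 1.87 (adjusted p = 0.0421) and Cpxm2 at 1.62 (adjusted p = 0.00726). Of the genes in this paragraph, Cpxm2 fell in vagina itself. Lgr5 (log2 0.805), Crabp1 (log2 -0.35) and Upk3b (log2 0.19) did not pass there.

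The effect in vagina was lower than in uterus for Clca1 at -4.56 (adjusted p = 0.0489), Hdc at -3.78 (adjusted p = 0.00196), Tspan8 at -3.75 (adjusted p = 0.000232), Cbr2 at -3.36 (adjusted p = 0.00125) and Shisa2 at -3.13 (adjusted p = 0.0339). It was also so for Tspan1 at -2.97 (adjusted p = 0.000232), Aldoc at -2.67 (adjusted p = 9.71e-05), Myh11 at -2.66 (adjusted p = 0.000141), Dkk2 at -2.29 (adjusted p = 4.75e-05) and Foxa2 at -2.28 (adjusted p = 0.00125). The same direction held for Pcp4 at -2.17 (adjusted p = 0.0134), Runx1 at -1.83 (adjusted p = 0.012), Emb at -1.43 (adjusted p = 0.00648), Wfdc15b at -1.42 (adjusted p = 0.00911) and Igf1 at -1.28 (adjusted p = 0.00326). Further genes of this direction were Klf4 at -1.199 (adjusted p = 0.0279) and Krt8 at -0.81 (adjusted p = 0.0396).

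Against oviduct, the effect in vagina was higher for Gdf10 at 3.51 (adjusted p = 2.57e-06), Padi4 at 3.21 (adjusted p = 0.00241), Sprr2f at 3.16 (adjusted p = 0.00417), Sptssb at 3.06 (adjusted p = 0.00104) and Krt15 at 2.998 (adjusted p = 0.00448). It was also so for Lgr5 at 2.98 (adjusted p = 0.000645), Krt14 at 2.91 (adjusted p = 0.013), Hoxd10 at 2.68 (adjusted p = 0.000645), Crabp1 at 2.59 (adjusted p = 2.02e-05) and Muc5b at 2.54 (adjusted p = 0.0238). The same direction held for Chad at 2.52 (adjusted p = 0.0104), Lrmp at 2.34 (adjusted p = 0.000897), Ltf at 2.28 (adjusted p = 0.0042), Krt5 at 2.25 (adjusted p = 0.0119) and Trp63 at 2.12 (adjusted p = 0.00923). Further genes of this direction were Inhbb at 2.097 (adjusted p = 0.00043), Wnt4 at 2.07 (adjusted p = 0.00015), Htra1 at 2.06 (adjusted p = 1.22e-05), Upk3b at 1.88 (adjusted p = 0.0163) and Ecel1 at 1.74 (adjusted p = 0.00441). Likewise came Bmp4 at 1.36 (adjusted p = 0.0154).

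The effect in vagina was lower than in oviduct for Hdc at -6.68 (adjusted p = 2.25e-06), Emb at -4.54 (adjusted p = 8.48e-09), Aldoc at -3.82 (adjusted p = 3.76e-07), Prom1 at -3.52 (adjusted p = 9.94e-09) and Arg2 at -3.52 (adjusted p = 2.44e-05). It was also so for Tppp3 at -3.26 (adjusted p = 0.000246), Rtn1 at -3.25 (adjusted p = 0.000389), Wfdc15b at -2.78 (adjusted p = 3.47e-06), Dkk2 at -1.78 (adjusted p = 0.00015) and Bcat1 at -1.74 (adjusted p = 0.000724). The same direction held for Tspan1 at -1.65 (adjusted p = 0.0122), Cldn6 at -1.63 (adjusted p = 0.00461), Chdh at -1.57 (adjusted p = 0.000391), Spc25 at -1.45 (adjusted p = 0.00177) and Krt18 at -0.93 (adjusted p = 0.00161). Further genes of this direction were Krt8 at -0.91 (adjusted p = 0.00611).

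Wnt4, Aldoc, Htra1, Hdc, Emb, Lgr5, Tspan1, Dkk2, Krt8, Upk3b, Crabp1 and Wfdc15b differed from both organs. The oviduct and uterus comparisons share the vagina arrays and are not independent.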

How the results depend on the processing

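Of 117 named genes that passed, 57 kept their call whichever vagina array was left out and 60 lost it at least once, and of the 117 only Acvr1b and Top2a turned direction, each on a further probe set that was Absent on all 5 vagina arrays (-0.14 and 0.03 on the log2 scale); the cause was not tested. They kept the call in 65 cases without DES array 2 and 76 without DES array 3, in 81 without the scan day block, 76 in the first scan day alone, 76 in the vagina arrays alone, 116 with quantile normalization, 106 with a pseudocount of 1 and 116 with 100. Of 57 further probe sets of these genes, 22 passed in the same direction. Counts of probe sets moved most with the arrays and the block. Without the block, 311 passed (211 higher, 100 lower), in the first scan day alone 485 (293 and 192), and in the vagina arrays alone 270 (193 and 77), against 749. Without a variance trend 184 were lower. Leaving out 1 vagina array gave 242 to 805 in all, 155 to 483 higher and 87 to 322 lower. For vagina minus uterus the counts were 39 (16 and 23) without the block, 34 (12 and 22) in the first scan day and 59 (28 and 31) without a trend, and leaving out 1 array gave 44 to 118 in all, 16 to 55 higher and 28 to 63 lower. For vagina minus oviduct they were 194 (76 and 118) without the block and 165 (71 and 94) in the first scan day, 173 were lower without the 2 oviduct arrays with conflicting records, and 296 (122 and 174) passed without the 3 arrays of other organs that carried muscle RNA, an alternative chosen after seeing the data, under which vagina minus uterus had 75 lower. Leaving out 1 array gave 236 to 422 in all, 88 to 202 higher and 148 to 232 lower. The cause of these shifts was not tested, though leaving out arrays also leaves fewer samples. Same-numbered arrays correlated with a median r of 0.23 (0.06 to 0.54) in their deviations from group means, against 0.201 (0.08 to 0.33) for other numbers of the same scan day. In each group array 3 alone was scanned on the second day, so its number and day cannot be told apart. These values therefore do not settle whether the numbers paired the arrays. With the replicate block in place of the scan day 662 probe sets passed, and 110 of the 117 genes kept their call. Detection limits weak genes, and a change given as "at least" bounds the weak signals only.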

Other observations

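Chaperone and endoplasmic reticulum stress genes had 6 of 30 measured members higher with DES in vagina and 0 lower, with a median of 0.42. Hspa1b, the inducible heat shock protein with a near-identical neighbour, rose from 770.5, 784 and 745 to 1811 and 1968 (log2 1.27, SE 0.15, adjusted p = 5.03e-05). Xbp1, a transcription factor of secretory cells, rose from 3101, 3114 and 3185 to 6349.8 and 4952 (log2 0.86, SE 0.13, adjusted p = 0.000764), a call lost without DES array 2. Sec61b, of the translocation channel, gave 3941 and 4369 with DES and 3002, 2548 and 3046 with oil (log2 0.52, SE 0.11, adjusted p = 0.00992), lost without either DES array. The count was 1 without DES array 2, 3 without DES array 3 and 3 without the scan day block, and 4 and 3 without oil array 1 or 2.

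Of 26 immediate early genes 3 rose. Egr1, a zinc finger factor, gave 2390.1 and 3007 with DES and 921, 954 and 729 with oil (log2 1.57, SE 0.21, adjusted p = 0.00023), and Ier3, a stress response gene, gave 1259 and 719 with DES and 226, 196 and 209.6 with oil (log2 2.04, SE 0.24, adjusted p = 4.29e-05). Fos gave 4091 and 1189.6 with DES and 632, 1101 and 473 with oil and did not pass (adjusted p = 0.0585). Among prostaglandin and histamine genes, Slco2a1, which carries prostaglandins into cells, rose (482 and 392 with DES and 248, 226 and 259.8 with oil; log2 0.78, SE 0.16, adjusted p = 0.00967), and Ptgds, which makes prostaglandin D, fell (264 and 91.2 with DES and 417, 413 and 270.0 with oil; log2 -0.97, SE 0.21, adjusted p = 0.0149). Both calls were lost without DES array 3, and that of Slco2a1 also without DES array 2. Further probe sets did not pass for Slco2a1 (log2 0.45 and 0.64, adjusted p = 0.542 and 0.301) and Ptgds (log2 -0.798, adjusted p = 0.0542). Igfbp2, a binding protein of insulin-like growth factors, rose from 1934, 1838 and 2091 to 3975 and 3039 (log2 0.81, SE 0.16, adjusted p = 0.0072), lost without DES array 2, whereas Igf1 did not pass (adjusted p = 0.354). Car2, a carbonic anhydrase of red cells and many epithelia, rose from 1801, 492 and 701 to 3052 and 2493 (log2 1.67, SE 0.32, adjusted p = 0.00604), lost without DES array 2, while the globin genes Hba-a1 and Hbb-bh1 were Absent on all 5 arrays.

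Of 25 imprinted genes 0 passed in limma, with 4 at an unadjusted p under 0.05 and 3 without the block. Of 23 cholesterol and fatty acid synthesis genes 0 passed in limma, with 2 at an unadjusted p under 0.05 and 0 without the block.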
